A study of Mus musculus with 2 samples.

Results

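The Fos and Jun family genes Fos, Fosb, Fosl1, Fosl2, Jun, Junb and Jund were examined for c-Fos chromatin immunoprecipitation sequencing (ChIP-seq) peaks in mouse bone marrow mesenchymal stem cells. A peak belonged to a gene when its centre lay within 50 kb of the gene's start on the mm9 build. By this rule the 7 genes held 19 of the 10870 peaks in the list (0.175%), 11 near the 4 Fos family genes and 8 near the 3 Jun family genes. The gene starts come with that rule and are accurate to a few kb, so positions relative to a start carry an error of that size. They were Fos on chromosome 12 at 86814851, Fosb on chromosome 7 at 19895500, Fosl1 on chromosome 19 at 5447703, Fosl2 on chromosome 5 at 32438850, Jun on chromosome 4 at 94719000, Junb on chromosome 8 at 87502600 and Jund on chromosome 8 at 73221600.

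The cells were p53KO mBMSCs, that is, bone marrow mesenchymal stem cells with a knockout of the tumour suppressor p53, and they expressed cFos. The labels put them at fewer than 20 passages and give neither the construct that drove c-Fos nor the number of clones. The study holds 1 library from a ChIP with 10 ug of anti-cFos antibody (Santa Cruz sc-253) and 1 input library from the same kind of cells, and the values here come from the peak list of the ChIP library. Both libraries share the p53 knockout and the c-Fos expression, and a single ChIP library gives neither a replicate error nor a test between conditions. The read depth is unknown. The cell identity and the expression of the 7 genes could not be checked from peaks alone.

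The Fos proteins (c-Fos, FosB, Fra-1 encoded by Fosl1, Fra-2 encoded by Fosl2) pair with the Jun proteins (c-Jun, JunB, JunD) through leucine zippers to form AP-1. AP-1 binds the TPA response element, and more weakly the cyclic AMP response element (CRE), TGACGTCA. The TPA response element was searched here as TGANTCA, with any base at N. Fos and Jun are immediate early genes, and some family members are known targets of AP-1 themselves: Jun through a TPA response element variant in its promoter, and Fosl1 through sequences within the gene. In bone, c-Fos is known for osteoclast formation and for bone tumours in mice that overexpress it. Whether the antibody recovers c-Fos alone or other Fos family proteins too was not tested, so the peaks are those obtained with it.

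Promoter sequence is given for 4 of the genes. Fosl2 had a peak 0.64 kb from its mm9 start and Junb had one 2.67 kb away. Fos and Jun had no peak within 10 kb. RefSeq windows of the GRCm38.p6 build, from 250 bases before to 50 after the start, were at hand for 6 of the 7 genes, all but Fosl1. These coordinates are on another build than the peaks and are not comparable with them. Fosl2 is at chr5:32136222-32136521 on the plus strand, Junb at chr8:84978699-84978998 on the minus strand, Fos at chr12:85473640-85473939 on the plus strand and Jun at chr4:95052173-95052472 on the minus strand. Each is written 5′ to 3′ along its gene, with TGACATCA and TGACG in capitals.
Fosl2: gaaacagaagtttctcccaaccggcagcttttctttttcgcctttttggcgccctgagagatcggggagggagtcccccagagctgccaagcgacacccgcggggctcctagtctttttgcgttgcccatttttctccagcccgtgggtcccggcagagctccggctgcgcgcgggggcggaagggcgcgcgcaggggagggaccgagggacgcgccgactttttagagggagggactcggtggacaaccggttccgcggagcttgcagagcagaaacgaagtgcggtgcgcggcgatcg
Junb: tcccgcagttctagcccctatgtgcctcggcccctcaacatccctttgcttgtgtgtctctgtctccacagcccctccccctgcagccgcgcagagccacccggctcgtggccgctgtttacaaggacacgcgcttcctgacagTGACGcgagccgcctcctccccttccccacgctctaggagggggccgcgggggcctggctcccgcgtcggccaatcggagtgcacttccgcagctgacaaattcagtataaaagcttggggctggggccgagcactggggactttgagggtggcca
Fos: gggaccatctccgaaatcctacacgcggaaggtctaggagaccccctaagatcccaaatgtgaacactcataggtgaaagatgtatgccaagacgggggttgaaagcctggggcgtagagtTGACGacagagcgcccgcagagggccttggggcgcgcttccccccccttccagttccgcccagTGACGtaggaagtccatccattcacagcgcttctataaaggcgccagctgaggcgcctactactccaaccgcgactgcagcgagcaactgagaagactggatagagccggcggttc
Jun: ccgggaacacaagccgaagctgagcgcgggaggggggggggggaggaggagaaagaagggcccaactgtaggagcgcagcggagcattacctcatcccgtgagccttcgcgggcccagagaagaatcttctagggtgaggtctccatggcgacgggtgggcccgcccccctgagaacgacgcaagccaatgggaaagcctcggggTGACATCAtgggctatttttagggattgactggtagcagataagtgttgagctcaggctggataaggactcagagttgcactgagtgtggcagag

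Both strands were searched. The pattern TGANTCA, with any base at N, was in 0 of the 6 windows and in 7.81% of the 32851 promoter windows in the table. The CRE TGACGTCA (1.79% of all windows) and the CArG box (1.63%), the core of the serum response element, were also in 0 of the 6. The windows end 250 bases before the start, so elements farther upstream were not searched, and an absence here holds for the window alone. The Jun variant TGACATCA was in the Jun window alone, starting 45 bases before the start, and in 3.62% of all windows. The core TGACG, searched after the sequences had been seen and contained in the CRE, was in the windows of Fos (129 and 66 bases before the start), Fosb (60 bases before) and Junb (106 bases before). It was in 20.8% of all windows. The Fosl2 and Jund windows held no match to any of these motifs. The share of G and C was 46.7% in the Jund window and between 58.7% and 68.3% in the other 5. Genes can have several starts, and whether each window, that of Jund among them, lies at the start used for the peaks was not tested. A match is a stretch of letters and no measured site, and these windows cover only a small part of the distances at which the peaks lay.

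c-Fos peaks lay close to the starts of Fosl1, Fosl2, Junb and Jund, and not close to those of Fos, Fosb and Jun. Within 5 kb of the start, 4 of the 7 genes had a peak centre, and within 10 kb the same 4. For comparison, 3.92% of all positions between the first and last peaks of the autosomes and X lay within 5 kb of a peak centre, and 7.29% within 10 kb. Distances from start to nearest peak centre were 0.64 kb for Fosl2, 0.73 kb for Fosl1, 1.15 kb for Jund and 2.67 kb for Junb, followed by 16.57 kb for Jun, 17.26 kb for Fosb and 45.90 kb for Fos. With starts known to a few kb, the order within the near 4 and the order of Jun and Fosb are not resolved. Moving every start by 3 kb to the left left 3 genes with a peak within 5 kb (Junb dropped to 5.67 kb), and moving it to the right left 4. At a score of at least 100 there were 3, Fosl1, Fosl2 and Junb. The 1 peak within 5 kb of Jund scored 50.83, near the lowest score in the list.

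Peaks in the list also lay near other kinds of positions, so the counts are set beside tiles of 100 kb, as wide as the windows, laid along chromosomes 1 to 19 and X. Of the 25465 tiles, 25.6% held at least 1 peak, against 7 of the 7 gene windows. At least 3 peaks were in 4.12% of tiles and in 4 of the 7 windows (Fosl1, Fosl2, Jun and Jund). At least 6 were in 0.212% of tiles and in 1 window, that of Fosl1. The limit of 6 is the count of Fosl1 itself, the highest of the 7, so this share only places that window among the tiles. The tiles include stretches with few genes, and no table of gene starts on mm9 was at hand, so how these windows stand among those of other genes was not tested.

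**Figure D1:**
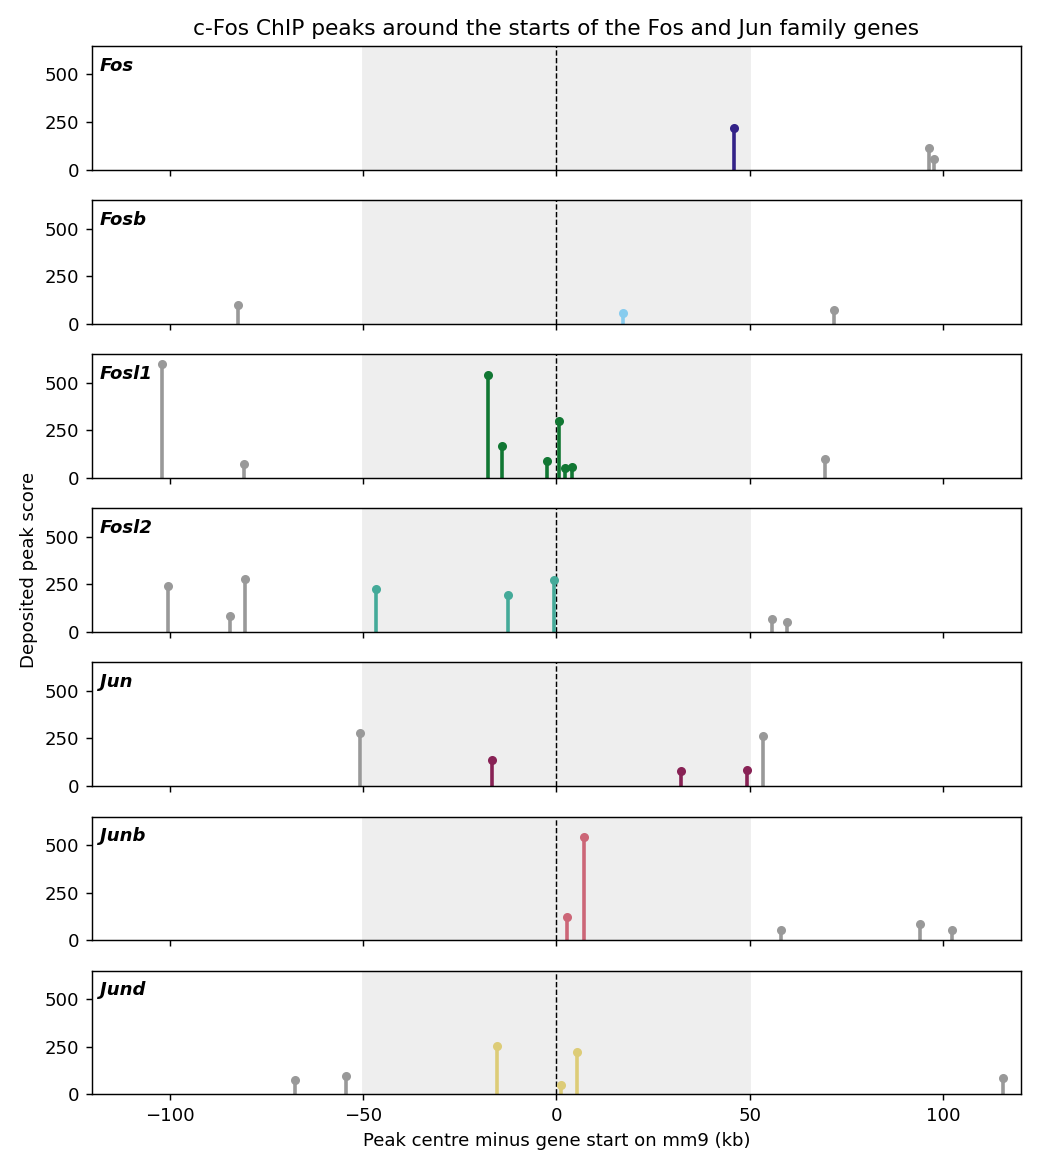
Each panel is 1 gene; the horizontal axis is the distance of a peak centre from the gene start on mm9 in kb, lower coordinates to the left, and the height of a line is the deposited score of the peak. The grey band marks 50 kb to each side, and peaks outside it are drawn in grey. Fosl1 shows 4 peaks within 5 kb of its start, while Fos and Fosb show 1 peak each in the band, away from the start.

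Among the Fos family, Fosl1 had the most peaks. Fosl1 encodes Fra-1, a Fos protein without the transactivation domain of c-Fos. Its 6 peaks all lay within 25 kb. The peak of 1937 bp at chr19:5447463-5449399 covered the start and scored 300.78, higher than 91.8% of the list, and it was wider than 99.5% of all peaks. It is the 1 peak of the 19 that covered a start as given.

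The other peaks close to Fosl1 scored low. On the lower-coordinate side lay chr19:5444697-5445711 with a score of 90.38. On the higher-coordinate side lay chr19:5449521-5450167 (score 51.51) and chr19:5451515-5452129 (score 56.49), near the lowest score in the list, 50.01. At 647 and 615 bp these were also narrow: 1.36% and 0.736% of listed peaks were narrower. The former began 121 bp beyond the edge of the peak over the start, and edge gaps under 200 bp made up 0.748% of the 10830 neighbouring pairs in the list. Whether such neighbours are separate sites or parts of 1 broad region was not tested.

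These 4 Fosl1 peaks spanned 6.62 kb from the first to the last centre. Of the 10790 runs of 4 neighbouring peaks in the list, 5 were as tight or tighter (0.0463%), that of Fosl1 included, and the median run spanned 323 kb. The run length of 4 and the limit of 6.62 kb are those of Fosl1 itself, so this share only places that run in the list. Neighbouring runs also share peaks and are not independent. At a score of at least 100, only the peak over the start remains of these 4. The peak of highest score near Fosl1 was farther off, at chr19:5429371-5430662, with its centre 17.69 kb from the start and a score of 539.26, rank 176 of 10870. A neighbour at chr19:5433119-5434232 scored 169.28. In the RefSeq table the lower-coordinate side holds the starts of Drap1, Tsga10ip and AI837181, so other genes share the side on which both peaks lie. Fosl1 has 10 protein-coding neighbours with a start within 50 kb in GRCm38.p6, the most of the 7 genes.

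Fosl2, which encodes Fra-2, had 3 peaks of high score, the farther 2 upstream of the start and the other next to it. The nearest, at chr5:32437742-32438674, had its edge 176 bp from the start as given and scored 275.09, higher than 89.9% of the list. The others were chr5:32425730-32426746, 12.61 kb upstream with a score of 192.85, and chr5:32391705-32392512, 46.74 kb upstream with a score of 226.76. Each of the 3 scored higher than at least 80.2% of the list. Downstream, the first peak centre was 55.69 kb away. With the starts as given, Fosl2 was the 1 gene of the 7 whose peak of highest score lay within 5 kb.

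Fos itself had 1 peak, far from its start. It lay 45.90 kb downstream at chr12:86860226-86861269 and scored 216.62, higher than 83.8% of the list. On the upstream side the nearest centre was 185.87 kb away, so a stretch of 231.8 kb around Fos held no peak centre. The stretch around the Junb start was of like length, 238.8 kb, with a peak near 1 end. The median position between the first and last peaks lay 174.9 kb from the nearest centre, farther than the Fos start. Of all positions between the first and last peaks, 24.1% lay as near to a peak centre as the Fos start or nearer. The corresponding shares were 11.6% for Fosb and 11.2% for Jun, and between 0.545% and 2.18% for the other 4 genes.

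Fosb, whose product resembles c-Fos, had 1 peak of low score. It lay 17.26 kb upstream at chr7:19912352-19913177 and scored 54.00, higher than 6.72% of the list. On the higher-coordinate side, where it lay, the RefSeq table has the starts of Ercc1, Cd3eap and Ppp1r13l. At a score of at least 100, Fosb had 0 peaks within 50 kb, and its nearest was 225.77 kb away.

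In the Jun family, Jun had 3 peaks, none of them at its start. Jun encodes c-Jun, the partner with which c-Fos forms the best-known AP-1 dimer. The nearest peak, at chr4:94701999-94702853, was 16.57 kb downstream and scored 137.60. The other peaks lay upstream, at chr4:94750506-94751688 (32.10 kb, score 81.21) and chr4:94767860-94768877 (49.37 kb, score 86.13). Both scored below the list's median of 101.

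The window's edge matters for Jun. Just outside it lay chr4:94667846-94668728, 50.71 kb downstream with a score of 278.32, and chr4:94771783-94773277, 53.53 kb upstream with a score of 261.78. Both scored above each of its 3 peaks inside. Within 250 kb of Jun there was no further peak. Just inside the limit at other genes were the Fos peak at 45.90 kb and the Fosl2 peak at 46.74 kb. Just outside were a Jund peak at 54.47 kb (score 95.27), the Fosl2 peak at 55.69 kb (score 66.35) and a Junb peak at 58.11 kb (score 54.22).

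Junb had 2 peaks within 10 kb, both on the upstream side of the start as given. JunB is a Jun protein known in mice to be needed for normal bone formation. The peak at chr8:87504863-87505680, 2.67 kb from the start, scored 119.29. The peak at chr8:87509040-87510265, 7.05 kb from the start, scored 541.07, rank 172 of 10870, the highest of the 19. On the other side of the start the nearest centre was 236.16 kb away. The RefSeq table has the starts of Hook2, Best2, Get3 and Trir on the side of both peaks.

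Jund had 3 peaks, and the nearest scored the lowest of the 19. JunD is the Jun protein that is expressed broadly and without strong induction. The peak at chr8:73222409-73223084, 1.15 kb from the start, scored 50.83, which is 0.82 above the lowest score in the list. Of higher score were chr8:73226276-73227429, 5.25 kb downstream with a score of 224.65, and chr8:73205779-73206867, 15.28 kb upstream with a score of 255.36. At a score of at least 100, Jund therefore had no peak within 5 kb of the start as given. On the downstream side the RefSeq table has the starts of Iqcn, Gm3336 and Pde4c, and on the upstream side those of Pgpep1 and Lsm4.

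Over the 19 peaks, scores ran from 50.83 to 541.07. Of these, 12 scored at least 100 (63.2%, Wilson 95% interval 41.0 to 80.9%), against 50.7% of all listed peaks. At least 200 was reached by 8 (42.1%, 23.1 to 63.7%), against 18.6% of the list. The intervals cover counting error only and treat peaks as independent, while up to 6 peaks share 1 gene and all come from 1 library. Whether the 19 differ from the list was therefore not tested at either score. The median score was 169 over the 19 and 101 over the list, 193 near the Fos family and 128 near the Jun family. Medians of single genes ran from 54.0 (Fosb) to 227 (Fosl2) and from 86.1 (Jun) to 330 (Junb). The Jun family value also depends on the window's edge, since peaks scoring 278.32 and 261.78 lay just outside it at Jun. Whether the families differ was not tested. Low scores were present too: 4 of the 19 scored under 60, as did 15.6% of the list. The score is the authors' own value for each peak on a scale that the file does not state, so it ranks peaks and is no measure of bound c-Fos.

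Whether peaks close to a start scored differently from those farther away is not resolved at the accuracy of the starts. With the starts as given, the 7 peaks within 5 kb had a median score of 90.4 and the 12 beyond had 205. With the starts moved 3 kb to the right the medians were 172 for 8 peaks and 169 for 11, and to the left 183 for 4 and 169 for 15. For the 6 genes with a strand in the promoter table, 7 peaks lay over 3 kb upstream of the start and 3 over 3 kb downstream. The side of the other 3 peaks, within 3 kb of Fosl2, Junb and Jund, is not resolved.

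**Figure D2:**
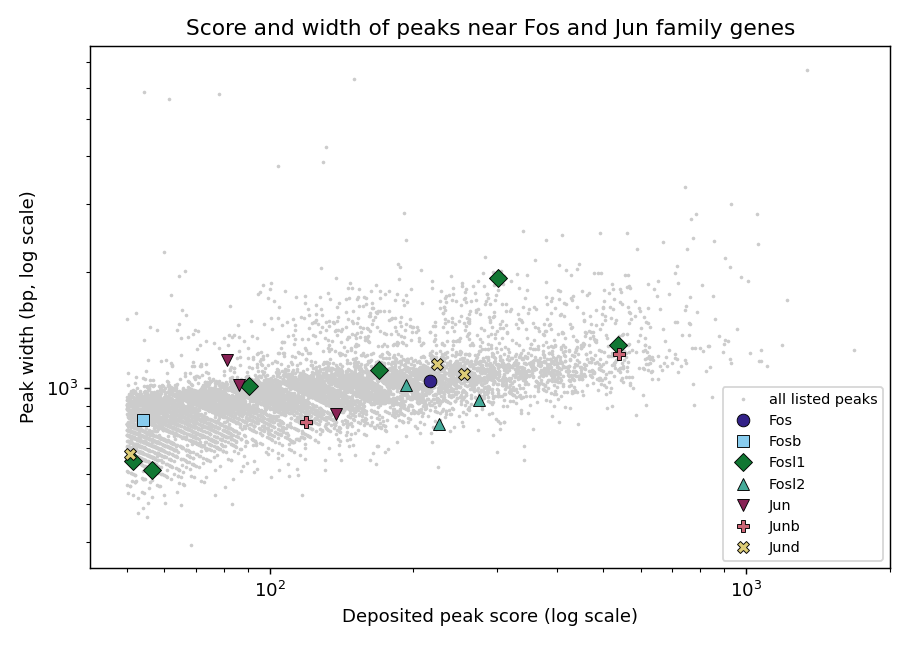
The horizontal axis is the deposited score and the vertical axis the peak width in bp, both on log scales, with each listed peak as a grey point and the 19 peaks near the Fos and Jun family genes in colour. The Fosl1 peak over the start, 1937 bp wide, is wider than 99.5% of the list, and the peaks of Jund and Fosl1 with scores near 50 lie low.

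The narrowest of the 19 was 615 bp wide and the widest 1937 bp. Their median width was 1017 bp, that of the list 949 bp, and 8 of the 19 were narrower than the latter. The 3 Fosl2 peaks, from the farthest to the nearest, were 808, 1017 and 933 bp wide, so the peak next to the start was narrower than the list's median despite its high score. The Jun peak 32.10 kb upstream combined a score below the list's median with a width of 1183 bp, wider than 91.8% of the list.

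The genes also differed in their wider surroundings. Within 500 kb of the start there were 29 peaks at Fosl1 and 22 at Fosl2, then 12 at Jund, 11 at Fos, 8 at Jun, 8 at Junb and 7 at Fosb. The share of 1 Mb tiles of the genome with fewer peaks was 100% for Fosl1, 99.8% for Fosl2 and 72.9% for Fosb. Near Fosl1, 10 of the 29 lay within 250 kb, while all 12 of Jund did. These counts include the peaks within 50 kb. Jun, with 3 peaks within 50 kb like Fosl2, had 8 within 500 kb, and Fos, with 1, had 11. The part of regional peak density in the window counts was not tested.

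**Figure D3:**
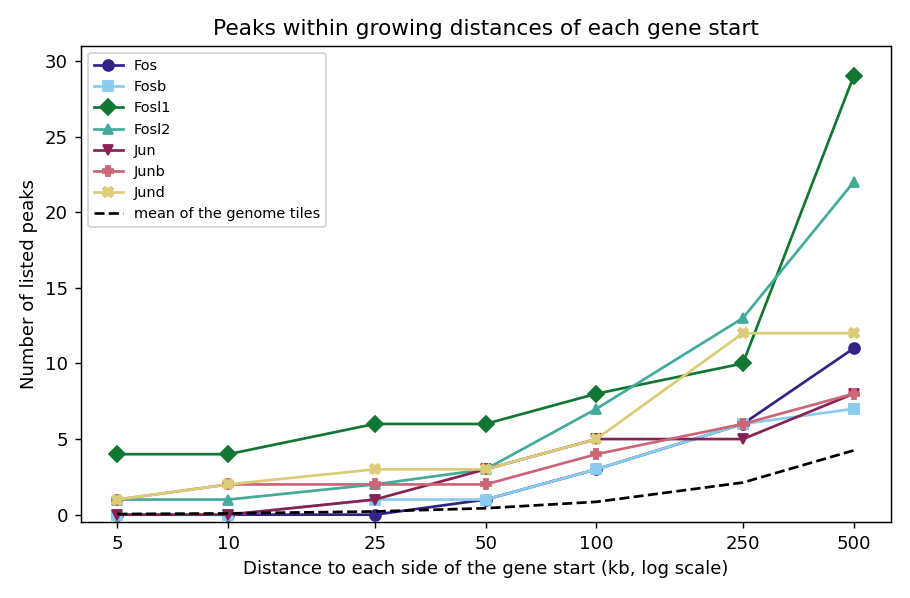
The horizontal axis is the distance to each side of the gene start in kb on a log scale, and the vertical axis is the number of listed peaks within it, with 1 line per gene; the dashed line is the mean of the genome tiles (0.425 peaks per 100 kb) scaled to the same length. Fosl1 has 4 peaks by 5 kb and reaches 29 at 500 kb, and Fos has 0 within 25 kb and 1 within 50 kb.

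Other genes shared some of the windows. In GRCm38.p6, no protein-coding gene other than the member starts within 50 kb of Fos, Fosl2 or Jun, and these 3 genes held 7 of the 19 peaks. The other 12 peaks lay near Fosb, Fosl1, Junb and Jund, which have 29 such protein-coding neighbours together. Junb has 8 of these, Fosb 6 and Jund 5. The long noncoding RNA gene Junos starts on the upstream side of Jun. Which gene a peak acts on, if any, cannot be read from its position.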

How the data were processed

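The authors deposited 1 list of c-Fos ChIP peaks with a start, an end, a name and a score per peak. The scale of the deposited score is not stated. Per the submitters' processing notes, the tools were CASAVA 1.8.2 and MACS 1.4.1 and the build was mm9, with no role given. The deposited start and end of each peak are positions in bp on mm9. The aligner, the peak threshold and the control were not given in the sources used here. Starts were read as BED and are printed 1-based. Samples were grouped by the antibody in the labels; the input library was not used here, and the depth is unknown.

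Peaks were assigned by their centre, within 50 kb of a start, and all 7 genes and 19 peaks are described. The members and lists were chosen with earlier results of these data known. Backgrounds are tiles of 100 kb, all positions between the first and last peaks, and all listed peaks. Alternatives tried were only peaks scoring 100 or more, no peaks from the widest 5%, starts moved by 3 kb, and other distances. The scores with moved starts, and the sides of peaks over 3 kb from a start, were added after the data had been seen. Procedures were tested on simulated positions. A comparison of the proteins was not run. RefSeq (GRCm38.p6) gave promoters, strands and names of neighbours; a neighbour with no strand there was placed by its lower coordinate. Python 3.11.15, numpy 2.4.6, pandas 2.3.3, scipy 1.17.1 and matplotlib 3.10.9 were used.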

Additional observations from a re-analysis of the deposited data

How the results depend on the processing

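Of 27 recomputed summary values, 19 stayed within 1.5 times the value above, and of 124 values for single genes, 90 did. Part of this tally was fixed in advance, since a score filter of 100 cannot change a highest score above 100. A fall from 4 genes to 3 also counts as staying within 1.5 times. The 19 peaks became 12 at a score of at least 100, 35 with a window of 100 kb and 58 with one of 250 kb, the last chosen after seeing the data; wider windows hold more peaks by construction. The median distance to the nearest peak, 2.67 kb, became 5.25 kb at a score of at least 100 and 5.67 kb with starts moved 3 kb to the left. The share of tiles with a peak, 25.6%, became 15.8% at a score of at least 100, 15.5% with tiles of 50 kb and 38.5% with tiles of 200 kb. The number of genes with a peak within 5 kb, 4, was 3 at a score of at least 100 (without Jund), 3 within 2 kb and 3 with starts moved to the left (both without Junb). Without the widest 5% of peaks, which takes out the peak over the Fosl1 start, the nearest to Fosl1 was 2.14 kb away. The unknown depth limits any statement on sites below the lowest score. No paired analysis was possible because no groups were compared.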

Other observations

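Between 50 and 250 kb from the 7 starts lay another 39 peaks, 9 of which scored at least 200. The highest of these was at chr19:5345004-5346592, 101.91 kb from Fosl1, with a score of 598.25. Upstream of Fosl2, further peaks lay at 80.52 kb (score 279.06), 100.52 kb (239.82) and 200.23 kb (386.28), and the other 3 upstream, at 84.27, 120.30 and 152.32 kb, scored 82.47, 123.18 and 75.36. The highest score within 250 kb of Fosl2 was on the other side, 467.19 at 178.51 kb downstream. Downstream of Fos, a pair of peaks lay 96.23 and 97.62 kb from the start, with scores of 111.95 and 56.31. Upstream of Jund, peaks at 153.33 and 235.61 kb scored 336.02 and 394.30.

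The motif search was also made in the promoters of other basic leucine zipper genes whose products can pair with Fos or Jun proteins or belong to the wider AP-1 group. Of 15 such genes, 11 were in the promoter table, with 15 windows. TGANTCA and the CArG box were in 0 of them. TGACGTCA (1.79% of all windows in the table) and TGACATCA (3.62%) were each in 1 of the 15, of Maff. The core TGACG, chosen after the sequences had been seen, was in 8 of the 15 windows, against 20.8% of all windows, and these belonged to 7 genes: Atf3, Atf4, Batf, Jdp2, Maff, Mafg and Mafk. No peaks were assigned to these genes, since their starts on mm9 were not at hand.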
